A study of Mus musculus with 8 samples.

Results

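The genes described here encode the proteins of the cytosolic ribosome, measured in 8 mouse liver tumors against control liver. They were the protein-coding genes whose symbol is Rpl or Rps followed by a digit, or Rpsa, Rplp0, Rplp1 or Rplp2, without pseudogenes and the Rps6k kinases. The annotation holds 89 such genes, of which 85 had a probe and 82 were tested among 14311 genes in all. Rpl37rt, Rps27rt, Rpl32l and Rps23 had no named probe and were not analysed here. Of the 82 tested genes, 76 encode subunit proteins (46 of the large and 30 of the small subunit) and are called core genes here. The others were 4 paralogs of core genes (Rpl22l1, Rps27l, Rpl36al and Rpl7l1), the Rps19 binding protein Rps19bp1 and the retrogene Rps23rg1.

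The tumors were hepatocellular carcinomas (HCC), the main cancer of hepatocytes, from male mice lacking the liver microRNA miR-122 (miR-122 KO). Control liver came from male mice of matched age whose miR-122 gene was floxed, which 1 label calls WT, and both genotypes had a mixed background of C57BL/6J and 129S/Svj. Each of the 8 arrays carried tumor RNA in Cy5 and control RNA in Cy3, with no dye swap and no tumor-free KO liver. Age in weeks, the Cre driver, the mouse each tumor came from and whether control RNA was pooled are not given in the labels used here. The p-values therefore measure the spread between these 8 arrays, and an effect of the dye and of the genotype cannot be told apart from that of the tumor.

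Ribosomal proteins fold around ribosomal RNA into a small subunit, which reads the mRNA, and a large subunit, which joins amino acids. Their mRNAs are among the most abundant of any cell and begin with a run of pyrimidines (the TOP motif), through which mTOR signalling and LARP1 set their translation. Some ribosomal proteins have further roles outside the ribosome, such as binding Mdm2, the ligase that degrades p53.

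Promoter sequence was at hand for 69 of the 89 genes (RefSeq, GRCm38.p6), 300 bases each. The following stretches show the 2 core genes with the highest ratios, and 4 paralogs with their core partners where at hand, since the results below turn on these genes. Each runs 5′ to 3′ from 70 bases before the annotated transcript start to 20 bases after it. Capitals mark matches to 4 motifs that were chosen after the promoters had been seen, and a base may belong to more than 1 match.
Rpl12 (chr2:32961642-32961731, plus strand): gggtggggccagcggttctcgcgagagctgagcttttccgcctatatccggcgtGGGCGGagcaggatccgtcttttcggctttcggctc
Rps24 (chr14:24490608-24490697, plus strand): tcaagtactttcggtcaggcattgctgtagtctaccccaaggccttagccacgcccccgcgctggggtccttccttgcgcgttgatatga
Rpl22l1 (chr3:28805438-28805527, plus strand): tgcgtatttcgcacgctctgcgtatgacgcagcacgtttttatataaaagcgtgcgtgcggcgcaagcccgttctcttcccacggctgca
Rpl22 (chr4:152325656-152325745, plus strand): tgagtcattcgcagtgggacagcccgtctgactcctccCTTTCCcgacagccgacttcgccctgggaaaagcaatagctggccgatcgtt
Rps27l (chr9:66946016-66946105, plus strand): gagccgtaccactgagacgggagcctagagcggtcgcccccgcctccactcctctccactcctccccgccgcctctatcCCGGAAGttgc
Rps27 (chr3:90213629-90213718, minus strand): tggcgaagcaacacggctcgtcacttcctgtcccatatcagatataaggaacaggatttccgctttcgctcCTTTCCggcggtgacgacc
Rpl36al (chr12:69184048-69184137, minus strand): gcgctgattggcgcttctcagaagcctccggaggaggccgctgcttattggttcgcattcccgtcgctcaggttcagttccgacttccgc
Rpl36a (chrX:134585584-134585673, plus strand): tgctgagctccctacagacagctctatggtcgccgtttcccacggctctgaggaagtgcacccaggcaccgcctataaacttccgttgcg
Rpl7l1 (chr17:46782637-46782726, minus strand): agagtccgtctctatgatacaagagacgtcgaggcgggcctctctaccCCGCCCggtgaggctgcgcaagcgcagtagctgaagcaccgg
The motif CCGGAAG, the core bound by ETS factors such as Gabpa, was looked for on both strands of the full 300 bases and stood in 23 of 56 core promoters (41.1%), against 9.12% of 27025 promoters. GGGCGG, the GC box of Sp1, searched on both strands, stood in 58.9% of core promoters and in 35.9% of all. CTTTCC, a run of pyrimidines, stood on the strand of the gene in 37.5% of core promoters and in 14.0% of all. It was looked for anywhere in the 300 bases, so these are not shares of pyrimidine-rich starts. CACGTG, the E-box bound by Myc with Max, searched on both strands, stood in 5 of 56 core promoters (8.93%) and in 7.24% of all. The median log2 ratio of core genes with and without a motif was 0.45 and 0.53 for CCGGAAG, 0.59 and 0.45 for GGGCGG, and 0.59 and 0.46 for CTTTCC. The 5 genes with CACGTG had a median of 0.71, against 0.47 for the other 51. These matches are a description of letters, and a missing match says only that the letters are not in this window.

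Ribosomal protein mRNA was higher in the tumors for most of these genes, usually by less than 2-fold. Of the 82 genes, 67 were higher at an adjusted p under 0.05 (limma, Benjamini-Hochberg over all genes), where 28.7% of all tested genes were. Lower calls were made for 3, where 25.1% of all genes were lower, and all 3 (Rps27l, Rpl7l1 and Rpl36al) were paralogs. A ratio of at least 2-fold with such a p was reached by 4 genes, where 9.54% of all genes were at least 2-fold higher. None was at least 2-fold lower, where 5.94% of all genes were. Among the 76 core genes 66 were higher and 0 lower, and 74 had a mean ratio above 0, as did 7452 of all 14311 genes. On every one of the 8 arrays 45 core genes were above 0 (59.2%), where 17.1% of all genes were. The median log2 ratio of the core genes was 0.52, a fold of 1.44, beside 0.03 for all tested genes. The levels in the tumor channel lay wholly above those in the control channel for 29 core genes, where 8.32% of all genes did so, and wholly below for none, where 8.47% did.

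**Figure D1:**
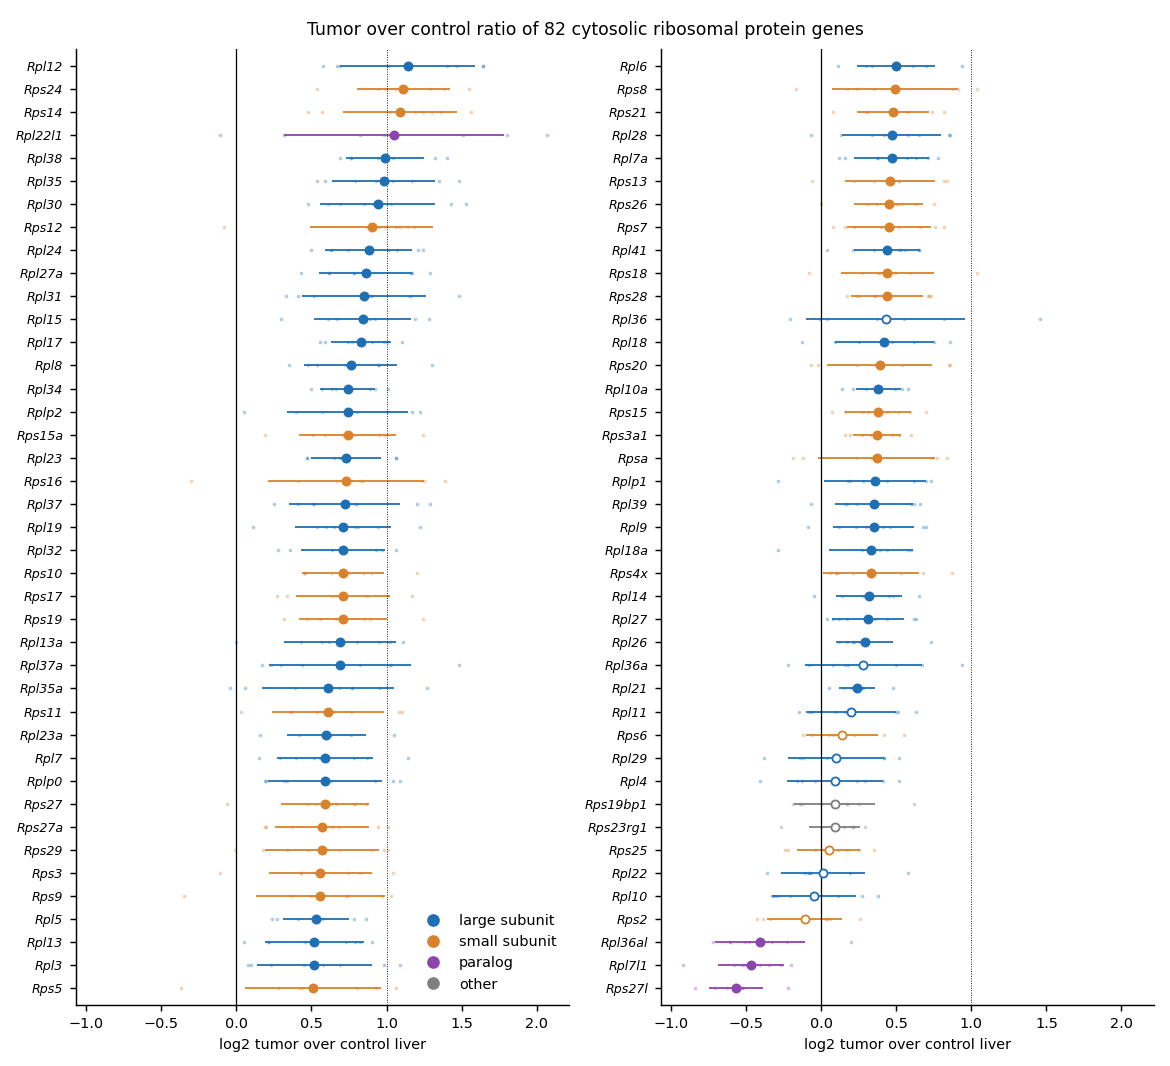
Log2 ratio of tumor over control liver for each of the 82 tested genes, ranked from highest to lowest down the left and then the right panel. Small points are the 8 arrays, large points the mean and bars the SD. Filled points passed the test (adjusted p under 0.05) and open points did not. The dotted line marks a fold of 2, passed by the means of 4 genes, and the 3 means below -0.40 are paralogs.

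The core genes were bright: their median brightness stood at the 98.2 percentile of all tested genes, and 69 of the 76 were at or above percentile 95. The other 645 genes at or above that percentile had a median log2 ratio of -0.27, and 19.7% of them were called higher and 41.4% lower. The intensity-dependent (loess) normalization was run again with the ribosomal protein probes left out of the curve, which gave a core median of 0.57 with 67 core genes higher. With the scanner's own processed signals the core median was 0.44 with 55 higher, and with plain median centring in place of loess it was 0.45 with 31 higher and 0 lower. Ratios were set within each array, so a change in total RNA per cell would not be seen, and in whole tissue fewer cells of a type and less RNA per cell cannot be told apart.

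The highest ratio belonged to Rpl12, a large subunit protein at the base of the stalk that recruits translation factors. Its log2 signal was 15.79 to 16.57 (median 16.15) in tumors and 14.56 to 15.44 (median 15.11) in control liver. Every tumor level lay above every control level, and the log2 ratio was 1.14 ± 0.45 (SD over 8 arrays, adjusted p = 0.000216). The ratio was 1.01 or more in tumors 1 to 5 and 0.58 to 0.69 in tumors 6, 7 and 8.

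Rps24, a small subunit protein needed to mature 18S ribosomal RNA, had log2 signals of 16.23 to 16.79 (median 16.54) in tumors and 15.14 to 15.69 (median 15.42) in control liver. The groups did not overlap, with a log2 ratio of 1.11 ± 0.31 (adjusted p = 4.61e-05), lowest in tumor 7 at 0.54 and highest in tumor 1 at 1.55. Rps14, whose human counterpart is lost in the 5q deletion of myelodysplasia, had 17.11 to 17.57 (median 17.41) in tumors and 15.97 to 16.88 (median 16.23) in control liver. These did not overlap either, and the ratio was 1.09 ± 0.38 (adjusted p = 0.000128). Tumors 7 and 8 held its lowest ratios, 0.48 and 0.57.

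Rpl38, which in mice helps the translation of certain Hox mRNAs, followed with a log2 ratio of 0.99 ± 0.26 (0.60 with the processed signals) and Rpl35, which sits by the exit of the peptide tunnel, with 0.98 ± 0.34. Both had 8 of 8 ratios above 0, and neither overlapped between channels. Rpl30, whose yeast counterpart controls the splicing of its own transcript, had a ratio of 0.94 ± 0.38, again without overlap. Rps12, a protein of the small subunit head, had 0.90 ± 0.41, and 1 tumor, number 7, had no excess (-0.08) while the other 7 had 0.87 to 1.18.

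**Figure D2:**
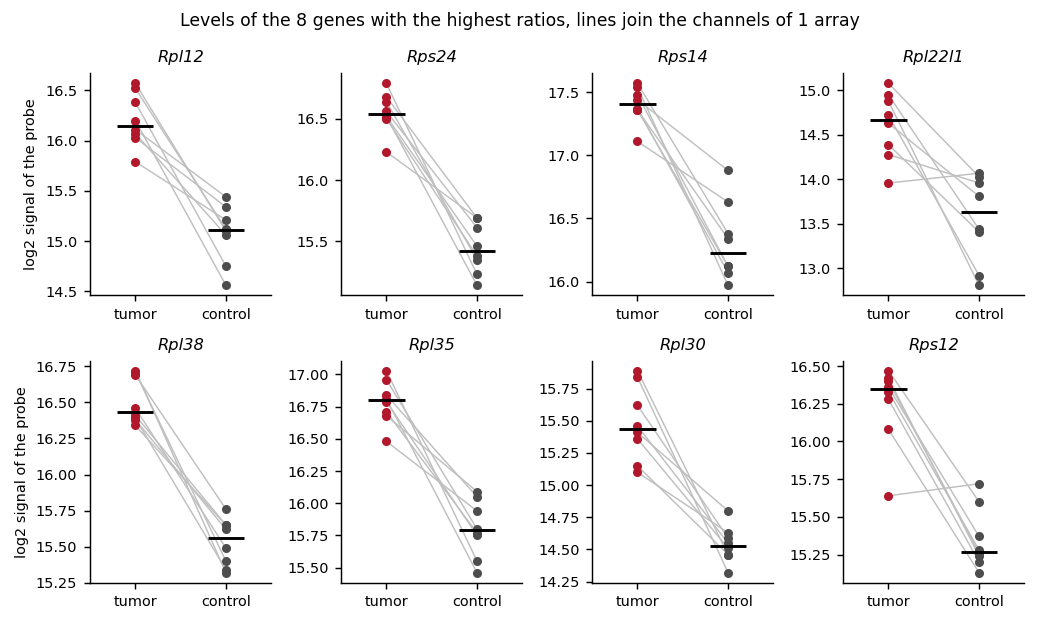
Log2 signal of the probe in tumor (left, red) and control liver (right, grey) for the 8 genes with the highest ratios, 1 point per array, with each vertical axis on its own range. Grey lines join the channels of 1 array and black bars mark the medians. The channels overlap only for Rpl22l1 and Rps12.

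Of the 46 large subunit genes 39 were higher (median 0.53 on the log2 scale), and of the 30 small subunit genes 27 were (median 0.50). The interquartile range of the core genes was 0.37 to 0.72. The SD over arrays had a median of 0.31 among core genes and of 0.368 among all tested genes.

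The stalk proteins Rplp0, Rplp1 and Rplp2, which activate elongation factors on the large subunit, were all called higher, at 0.59 ± 0.38, 0.36 ± 0.34 and 0.74 ± 0.40. Rplp2 did not overlap between tumors (16.10 to 16.98) and control liver (15.56 to 16.05), and neither did Rplp0 (16.84 to 17.33 in tumors, 15.75 to 16.74 in control liver). Rplp1 overlapped, and its call was lost without tumor 1, 2, 3, 4 or 6 (adjusted p up to 0.075).

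Several core proteins have roles outside the ribosome. Rpsa, also the laminin receptor, had a ratio of 0.37 ± 0.39 (adjusted p = 0.0407), a call lost without tumor 1, 2, 3, 4, 5 or 8 (adjusted p up to 0.0979). Rps3, which also acts in DNA repair, stood at 0.56 ± 0.34, and Rpl13a, which in human monocytes silences inflammatory mRNAs, at 0.69 ± 0.37. Rps6, the substrate of S6 kinase downstream of mTOR, had 0.14 ± 0.24 and did not pass the test (adjusted p = 0.227).

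Rpl5 and Rpl11 travel with 5S ribosomal RNA as a particle that binds Mdm2. The log2 ratio of Rpl5 was 0.53 ± 0.22 (adjusted p = 0.00104), above 0 in 8 of 8 arrays, with overlapping levels of 13.63 to 14.25 in tumors and 13.12 to 13.70 in control liver. That of Rpl11 was 0.20 ± 0.30 (adjusted p = 0.15), above 0 in 5 of 8. Of 12 genes listed for binding Mdm2, 9 were higher (75%) and 1, the paralog Rps27l, was lower, with a median of 0.54. Of 14 genes whose human counterparts are mutated in Diamond-Blackfan anemia, 13 were higher (92.9%) and 0 lower, with a median of 0.55. Both lists stood near the core genes as a whole, of which 86.8% were higher with a median of 0.52. Rps19, the first of the anemia genes to be linked to the disease, had 13.67 to 14.77 in tumors and 13.24 to 13.59 in control liver, with no overlap and a ratio of 0.71 ± 0.29.

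The other 10 core genes did not pass the test. The lowest mean was that of Rps2, at the mRNA entry side of the small subunit, with -0.11 ± 0.25. A second Rps2 probe, nearly as bright (15.00 beside 15.19), gave -0.64 ± 0.80. The mean of the Rps2 probes was -0.38 and did not pass the test (adjusted p = 0.0643). Rpl10, the last large subunit protein to join, had -0.05 ± 0.28, and Rpl22 had 0.01 ± 0.28. Rps25, used by some viral internal ribosome entry sites, stood at 0.05 ± 0.21 and Rpl4, which lines the peptide tunnel, at 0.09 ± 0.32. On the probes used, Rpl22, Rps2 and Rpl10 had 5, 4 and 5 of 8 arrays below 0, so the tumors were split around 0 for these probes. The remaining ones were Rpl29 (0.10), Rps6 (0.14), Rpl11 (0.20), Rpl36a (0.28) and Rpl36 (0.43). On the probe used, Rpl36 had the largest SD of any core gene, 0.53, with ratios of -0.21 in tumor 7 and 1.46 in tumor 4. It passed the test without tumor 7 (adjusted p = 0.0323). The other Rpl36 probes gave 0.34 ± 0.22 and 0.30 ± 0.26, and the mean of its probes passed the test (0.36, adjusted p = 0.0148).

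On the probes used, the genes that varied least were Rpl21 (SD 0.12), Rpl10a (0.15) and Rps3a1 (0.16). Rpl10a rose by a log2 ratio of 0.38 and Rps3a1, a small subunit protein of the mRNA exit side, by 0.37, both without overlap between channels. A dimmer second probe varied more for each, with 0.62 ± 0.26 for Rpl10a and 0.44 ± 0.80 for Rps3a1. The Rpl21 probe was dim, at the 26.2 percentile of brightness, and its ratio of 0.24 lost its call without tumor 3 (adjusted p = 0.052). Outside these, the largest SD after that of Rpl22l1 belonged to the probes used for Rpl36 and Rps16. Rps16 had 0.73 ± 0.52, with -0.30 in tumor 7 and 1.39 in tumor 1. Rps19bp1 (0.09 ± 0.27) and Rps23rg1 (0.09 ± 0.17), which are no ribosome components of the core set, did not pass the test.

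The tumors differed in how far the core genes stood above control. The median log2 ratio of the 76 core genes was 0.85, 0.75, 0.86 and 0.55 in tumors 1 to 4 and 0.48, 0.39, 0.16 and 0.40 in tumors 5 to 8. Tumor 7 had the lowest ratio of 40 of the 76 genes, tumor 1 the highest of 31 and tumor 3 the highest of 25. In tumor 7, 53 of the 76 ratios were above 0, while in tumors 1, 2 and 3 the numbers were 74, 75 and 74.

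Tumors 1 to 4 were hybridized in the upper row of the slide and tumors 5 to 8 in the lower row. Fitted alone, the upper row gave a core median of 0.75 with 63 core genes higher, where 24.0% of all genes were. The lower row alone gave 0.31 with 15 higher, where 9.64% of all genes were, and neither row had a core gene called lower. The tumor level of the median core gene was 15.96, 15.84, 16.10 and 15.76 in the upper row and 15.75, 15.64, 15.65 and 15.80 in the lower row. The control level was 15.15, 15.11, 15.25 and 15.19 in the upper row and 15.28, 15.33, 15.39 and 15.44 in the lower row. Tumor levels were therefore on the whole higher, and every control level lower, in the upper row than in the lower row. Whether the row or the tumors in it gave this difference was not tested. The count of genes at least 2-fold higher was 13 in the upper row and 0 in the lower row, and it was 8 without tumor 7.

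**Figure D3:**
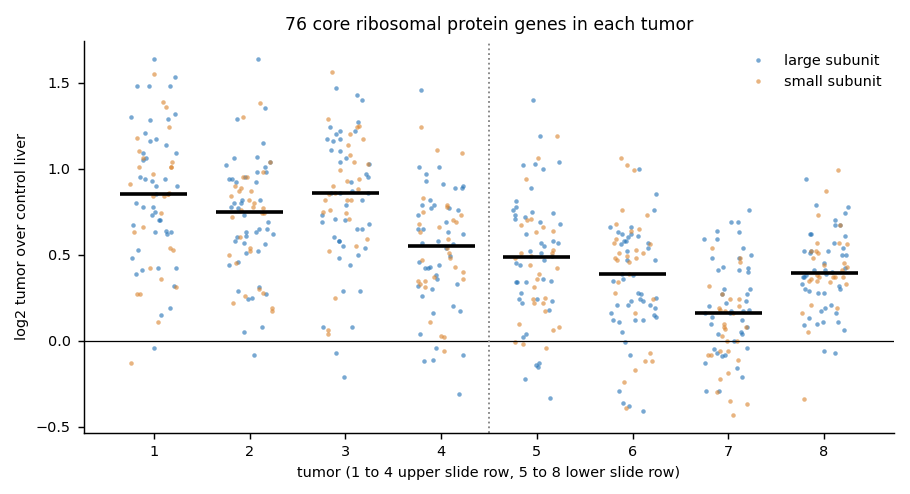
Log2 ratio of tumor over control liver of the 76 core genes in each tumor, 1 point per gene (blue large subunit, orange small subunit), with a black bar at the median. The dotted line parts the upper slide row from the lower. The medians are 0.55 to 0.86 in tumors 1 to 4 and 0.16 to 0.48 in tumors 5 to 8.

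Paralogs differed from their core partners in 4 of the 5 pairs that could be tested. Of the 8 listed, Rpl10l and Rpl39l were not well above background on any array, and Rpl3l was so on 1 array in each channel. None of these 3 was tested, while their partners Rpl10 (-0.05), Rpl39 (0.35) and Rpl3 (0.52) were. Of 5 pairs compared within arrays by an exact two-sided sign-flip permutation test, adjusted over the 5, 4 differed.

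Rpl22l1 was the paralog that rose. In mice the Rpl22 protein represses the Rpl22l1 transcript, and either can serve in the ribosome. Rpl22l1 had log2 signals of 13.96 to 15.08 (median 14.67) in tumors and 12.81 to 14.07 (median 13.63) in control liver, which overlap. Its log2 ratio was 1.05 ± 0.73 (adjusted p = 0.00366), with 7 of 8 above 0: 2.07 in tumor 2 and 1.80 in tumor 1, but -0.11 in tumor 3. The Rpl22 ratios of tumors 1 to 8 were 0.19, -0.08, 0.58, -0.11, 0.02, -0.36, -0.08 and -0.07, beside 1.80, 2.07, -0.11, 0.98, 1.05, 0.82, 0.32 and 1.51 for Rpl22l1. The difference Rpl22l1 minus Rpl22 was 1.04 ± 0.87 (7 of 8 above 0, exact p = 0.0234, adjusted 0.0293), and its adjusted p was 0.0586 without tumor 1, 2, 4, 5, 6 or 8. A second, dimmer Rpl22 probe gave -0.86 ± 0.21, so the direction of Rpl22 depends on the probe. With the mean of both probes Rpl22 was called lower, at -0.42 (adjusted p = 0.0011).

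Rps27l fell while Rps27 rose. Both are zinc-finger proteins of the small subunit that bind Mdm2, and the human RPS27L gene is induced by p53. Rps27l had 14.55 to 15.16 (median 14.86) in tumors and 15.12 to 15.74 (median 15.44) in control liver. The groups touched only at their edges, and all 8 ratios lay below 0, with a mean of -0.57 ± 0.18 (adjusted p = 0.000367). Rps27 had 15.75 to 16.37 (median 16.19) in tumors and 15.39 to 15.81 (median 15.61) in control liver, a ratio of 0.59 ± 0.29. The within-array difference, Rps27l minus Rps27, was -1.16 ± 0.35, below 0 in 8 of 8 arrays (exact p = 0.00781, the smallest the design allows, adjusted 0.013). The 2 genes' promoters, printed above, differ in their matches, with CTTTCC in that of Rps27 and CCGGAAG after the start of Rps27l.

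Rpl7l1 and Rpl36al fell as well. Rpl7l1, related to a yeast factor that assembles the large subunit, had 8.55 to 9.49 (median 9.23) in tumors and 9.47 to 9.76 (median 9.56) in control liver. Its ratio was -0.47 ± 0.22 (adjusted p = 0.00198), below 0 in 8 of 8, while Rpl7 stood at 0.59 ± 0.32. The difference Rpl7l1 minus Rpl7 was -1.06 ± 0.49 (exact p = 0.00781, adjusted 0.013). Rpl36al, which encodes nearly the same protein as Rpl36a, had 13.84 to 14.72 (median 14.05) in tumors and 14.36 to 14.70 (median 14.54) in control liver. These overlap through tumor 8, the single array above 0 (0.20), and the ratio was -0.41 ± 0.30 (adjusted p = 0.00997). Rpl36a, at 0.28 ± 0.39, did not pass the test, and the difference Rpl36al minus Rpl36a was -0.69 ± 0.43 (exact p = 0.00781, adjusted 0.013).

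The fifth pair was Rps4l, which the annotation lists as noncoding and which is therefore no member, with Rps4x. Rps4l split the tumors, with log2 ratios of 2.15, 1.19 and 0.25 in tumors 7, 5 and 6, and with ratios below 0, down to -2.68, in the other 5. Its tumor levels spanned 7.98 to 12.22, while control levels spanned 10.07 to 11.18. Rps4x rose by 0.33 ± 0.32, a call lost without tumor 1, 2 or 6 (adjusted p up to 0.0795). The difference, Rps4l minus Rps4x, was -1.13 ± 1.94 (exact p = 0.148, adjusted 0.148), and its adjusted p was 0.0469 without tumor 7.

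**Figure D4:**
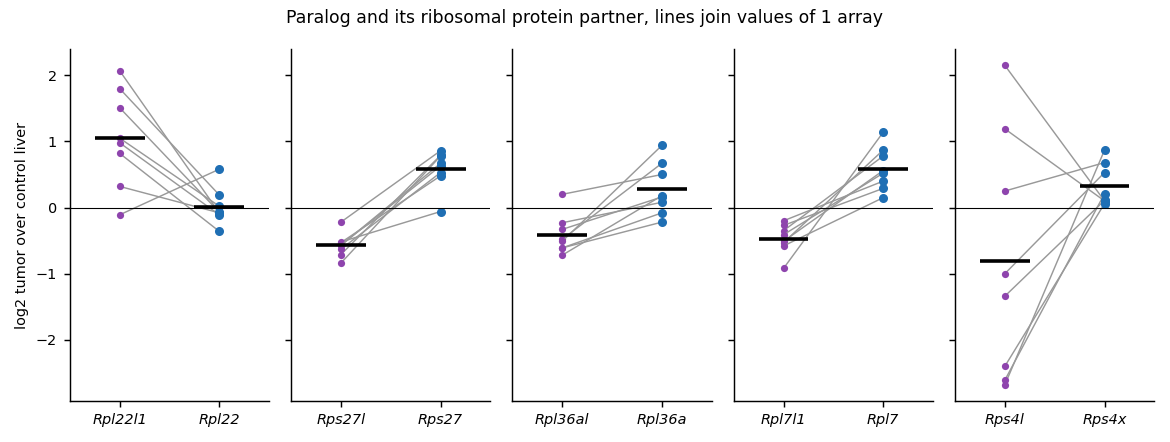
Log2 ratio of tumor over control liver of each paralog (left, purple) and its core partner (right, blue), 1 point per array, with lines joining values of the same array and black bars at the means. Rps27l, Rpl36al and Rpl7l1 lie below their partners on all 8 arrays, and Rpl22l1 lies above Rpl22 on 7.

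Ribosomal protein genes have many processed copies of near-identical sequence in the genome, and which copies each probe detects was not tested. For 50 genes more than 1 probe was tested, and for 45 of these all probes had ratios of 1 sign. The exceptions were Rpl22, Rpl23 (-0.41 to 0.91), Rpl6 (-0.09 to 0.83), Rps25 (-0.46 and 0.05) and Rpsa (-0.30 to 0.37). Their probes of opposite sign were dimmer than the probes used. Among the genes with the highest ratios, the probes of Rpl12 gave 0.97 and 1.14, those of Rps24 0.70 to 1.11, those of Rpl38 0.47 and 0.99, those of Rpl30 0.22 to 0.94 and those of Rps12 0.69 and 0.90. The lower Rpl38 probe was nearly as bright as the one used (log2 brightness 15.95 and 16.02), while the probe of Rpl30 at 0.22 was dimmer than the others (9.42, beside 14.58 and 15.01).

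Other genes of the ribosome and of translation moved less uniformly. Rack1, a core scaffold of the small subunit without an Rps symbol, was higher at 0.61 ± 0.38 with no overlap between channels. Fau, which encodes a ubiquitin-like protein fused to a small subunit protein, did not pass the test (0.17 ± 0.31). Among 20 other mRNAs with a TOP start, 10 were higher (50%, beside 28.7% of all tested genes) and 0 lower (beside 25.1%), with a median of 0.22. The largest were Hnrnpa1, an RNA-binding splicing factor (1.14 ± 0.36), the exchange factor subunit Eef1b2 (0.83 ± 0.44), the poly(A)-binding protein Pabpc1 (0.76 ± 0.51) and Tpt1 (0.73 ± 0.33).

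Of 44 ribosome biogenesis genes 12 were higher (27.3%, beside 28.7% of all tested genes) and 8 lower (18.2%, beside 25.1%), with a median of 0.03, so these shares stood near or under those of all genes. Eif6, which keeps the large subunit from joining too early and is also listed as an initiation factor, was the highest, with 13.88 to 14.60 in tumors and 12.61 to 13.37 in control liver. Its ratio was 1.24 ± 0.25, and the channels did not overlap. Nop58 (0.85 ± 0.27) and nucleolin, Ncl (0.75 ± 0.27), were also higher, and Nop10, of the complex that makes pseudouridine, was lower (-1.07 ± 0.40). Of 14 genes of RNA polymerase I and its factors, which transcribe ribosomal RNA, 6 were higher (42.9%) and 2 lower (14.3%) with a median of 0.26. The largest subunit, Polr1a, rose by 1.01 ± 0.25, while Taf1d (0.39) and Taf1c (0.35) rose less and the subunit Znrd1 fell by 0.50.

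Of 40 initiation factor genes 8 were higher (20%) and 12 lower (30%), close to the shares of all genes, with a median of -0.03. Eif1ax (-0.99 ± 0.31), Eif2s3x (-0.82 ± 0.93) and the helicase Eif4a2 (-0.72 ± 0.31) were the lowest. Of 11 elongation and termination genes 4 were higher (36.4%, beside 28.7% of all genes) and 3 lower (27.3%, beside 25.1%), with a median of -0.14. Among those called were Eefsec, which delivers selenocysteine (-0.85 ± 0.49), Gspt1 (-0.40) and Eef1d (0.40). Of 21 genes of mTOR and LARP1 control 5 were higher and 5 lower (23.8% each, near the shares of all genes), with a median of -0.06. The mTOR inhibitor Ddit4 rose by 1.80 ± 0.84 and the translation repressor Eif4ebp1 by 0.78 ± 0.63, while Mtor (-0.80 ± 0.54) and Eif4ebp2 (-0.80 ± 0.52) fell. These are mRNA levels and give no measure of mTOR activity.

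Myc, which drives ribosomal protein and biogenesis genes, had log2 signals of 9.21 to 10.36 (median 9.61) in tumors and 7.21 to 7.59 (median 7.45) in control liver. The groups did not overlap, and the ratio was 2.28 ± 0.41 (adjusted p = 3.01e-06). In tumors 1 to 8 it was 1.66, 2.23, 2.87, 1.93, 2.47, 2.11, 2.17 and 2.77. In the rest of its network Mnt (0.47) and Mxd3 (0.47) were higher and Mycn was lower (-0.73 ± 0.58), and 5 of 9 genes did not pass the test. Of these 9 genes, Myc included, 33.3% were higher and 11.1% lower, beside 28.7% and 25.1% of all tested genes.

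Mitochondrial ribosomal proteins, which form the separate ribosome of that organelle, were mostly lower or uncalled. The median log2 ratio of the 77 tested genes was -0.29. Of these, 37 were lower (48.1%, beside 25.1% of all tested genes) and 6 higher (7.79%, beside 28.7%). Mrpl49 had 9.39 to 10.48 in tumors and 10.91 to 11.57 in control liver, with no overlap and a ratio of -1.23 ± 0.46. Mrps27 (-1.16 ± 0.56), Mrpl32 (-0.92 ± 0.45) and Mrpl36 (-0.87 ± 0.42) were next. In every tumor the core median of the cytosolic proteins was above that of the mitochondrial ones, which was -0.35, -0.17, -0.30, -0.36, -0.21, -0.45, 0.11 and -0.36 in tumors 1 to 8. The gap was smallest in tumor 7, where the cytosolic median was 0.16 and the mitochondrial median 0.11.

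**Figure D5:**
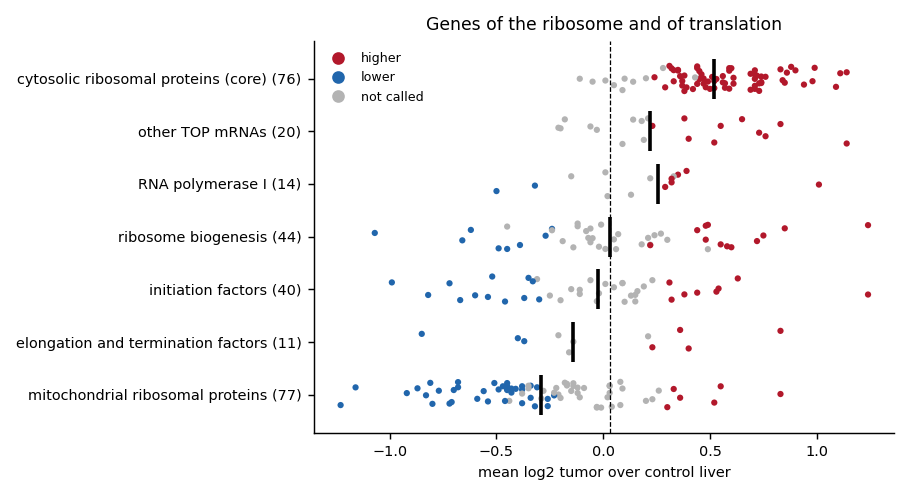
Mean log2 ratio of tumor over control liver for genes of 7 lists, 1 point per gene (red higher, blue lower, grey not called, at an adjusted p under 0.05), with the number of tested genes in brackets. Black bars are list medians and the dashed line is the median of all tested genes, 0.03. Core ribosomal proteins have the highest median, 0.52, and mitochondrial ribosomal proteins the lowest, -0.29.

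The tissue was described by marker lists chosen with earlier results of these data known. They are therefore no independent check of the labels. Among all tested genes, 28.7% were higher, 9.54% at least 2-fold higher and 25.1% lower. All 8 tested liver tumor markers were at least 2-fold higher, and 7 of 12 hepatocyte markers were lower and 0 higher, although their summed linear signal was still 803000 to 1050000 in tumors and 1200000 to 1590000 in control liver. Markers of stellate cells and fibroblasts (6 of 9 higher, 1 lower) and of bile duct cells (6 of 8 higher, 0 lower) rose, and 4 of 8 endothelial markers fell. Leukocyte markers were higher for 2 of 6 (33.3%), and macrophage markers were higher for 3 (33.3%) and lower for 4 (44.4%) of 9. The shares of higher genes in these lists were near that of all genes. The 4 macrophage markers called lower were all at least 2-fold lower, where 5.94% of all genes were. Erythroid markers were higher for 0 and lower for 1 of 7, but their median log2 ratio differed between tumors. It was -0.54 in tumors 4 and 5 and 1.56 in tumors 2 and 8. For skeletal muscle 1 of 6 was higher and 1 lower, but in array 8 the summed control signal was 63800, the highest of the 8 arrays, where the lowest was 708. The core median in that array was 0.40, and leaving out array 8 alone gave a core median of 0.56 with 65 core genes higher. Leaving out arrays 1, 2 and 8 together gave 0.45 with 50 higher, where arrays 1 and 2 had core medians of 0.85 and 0.75. The part that the mix of cells had in the ribosomal protein ratios was not tested. Of all probes, 38.5% to 51.9% were well above background in tumors and 45.1% to 54.3% in control liver, with array 8 the dimmest in the tumor channel.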

How the data were processed

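The deposited scanner files give each spot's median signal and median background as intensity, and processed intensity signals. Per the file headers, the processed signals had background subtraction and dye normalization. They were made with Agilent Feature Extraction 10.9 per the submitters' processing notes, version 10.9.1.1 per the file headers. Median signals were corrected with normexp (offset 50) and normalized within arrays by loess (limma 3.58.1 and data.table version 1.17.8 in R 4.3.3), with control and outlier spots at weight 0. No spot was saturated. Channel levels are log2 values after a further Aquantile step. Precision is limited by the number of arrays.

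Of 55681 probes, 26582 were named by accession (RefSeq, GRCm38.p6). A probe was tested if well above background on at least 4 of 8 arrays in 1 channel, and each gene was given by its brightest tested probe. For 14311 genes, limma (lmFit, eBayes) tested whether the mean log2 of Cy5 (tumor) over Cy3 (control) differed from 0, with Benjamini-Hochberg adjustment. Calls needed an adjusted p under 0.05, and 2-fold calls an absolute ratio of 1 or more on the log2 scale too. SDs are given as errors. On simulated data with 100 genes shifted by 0.5 and 100 by 1, this called 34 and 83, with 7 false calls among 14311 genes. Those were few shifted genes, while in the data 28.7% of all tested genes were called higher and 25.1% lower. The simulated shares called therefore do not carry over to these data.

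The members, gene lists and tests were chosen with earlier results of these data known. Genes are named here if among the 8 highest or 8 lowest ratios, past 2-fold, paralogs or their partners, of the 3 largest or smallest SDs, or in a short list of well-known members. In other lists up to 4 called genes with the largest ratios, Fau and Rack1 are named; 1 further gene of the rule is not reported here. Rpl29 and the members given for their probes (Rpl23, Rpl6) were chosen after their values were seen.

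Alternatives were the background, the normalization, the filter, the probe rule, the fit, the slide row and arrays left out.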

Additional observations from a re-analysis of the deposited data

Results flagged for a closer look

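Of 45 values checked over the 8 tumors, 2 had 1 tumor far from the rest by Dixon's criterion, where chance gives about 1 in 20. Rps12 had a log2 ratio of -0.08 in tumor 7, against 0.87 to 1.18 in the other 7 tumors. Rps27 had -0.06 in tumor 7, against 0.48 to 0.86 in the others. Tumor 7 also had the lowest core median, 0.16.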

How the results depend on the processing

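The direction of the core median held under all 16 other settings and without each array in turn. The median over all 82 genes was 0.30 to 0.71 under these settings and 0.45 to 0.55 with 1 array left out. The count of higher genes, 67, was 32 with median centring in place of loess and 16 in the lower slide row alone. The 2-fold count, 4, was 2 with processed signals, with median centring and with arrays 1, 2 and 8 left out, 13 in the upper row, 0 in the lower row and 3 to 8 with 1 array left out. The lower row called 1 gene lower. In subsets of 4 or 5 arrays the paralog test cannot reach the threshold. There, Rpl22l1 minus Rpl22 was 1.04 (upper row), 1.05 (lower row) and 0.60 (arrays 1, 2 and 8 left out). In the same order Rps27l minus Rps27 was -1.35, -0.97 and -1.04, Rpl36al minus Rpl36a was -0.86, -0.52 and -0.52, and Rpl7l1 minus Rpl7 was -1.41, -0.71 and -0.95. With arrays 1 and 2 averaged, Rpl22l1 minus Rpl22 was 0.92 (adjusted exact p = 0.0586). With 1 array left out it was 0.88 to 1.29, and Rps4l minus Rps4x was -1.59 to -0.79. Rpl22 turned to -0.42 under the mean of its probes, 1 of which reads lower; for the other changes the cause was not tested. For single genes, 801 checks kept their direction and side of the threshold, 65 lost the call, 6 gained it, 15 changed sign without a call (of Rpl22, Rps25, Rpl10, Rps2, Rpl11 and Rpl4) and 1, that of Rpl22, reversed. Pairing was used within arrays only, since each ratio is taken within an array and the replicate numbers form 1 group. Dim probes limit Rpl21 and Rps23rg1.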
